A study of Mus musculus with 19 samples.

Results

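Axon guidance genes encode the cues that steer growing axons and the receptors on the growth cone that read them. In the deposited table of genic extrachromosomal circular DNA (eccDNA), 40 of 8336 genes were chosen by symbol alone, as every semaphorin, plexin, neuropilin, Slit, Robo, netrin, netrin-G, Unc5, *Dcc*, ephrin and Eph receptor name that the table holds. The same naming rule matches 76 gene names in GENCODE release M21 of the mm10 mouse genome, and the other 36 are not in the table. The netrin genes *Ntn1*, *Ntn3*, *Ntn4* and *Ntn5* are among these 36, so no netrin is among the 40. The table holds only genes with an eccDNA in at least 1 sample, and 21 of the 40 had one in ALS samples only. Of the 40 genes, 17 encode ligands and 20 encode receptors. The remaining 3 carry only the name of a guidance gene. *Plxna4os1* and *Plxna4os3* are antisense RNAs within *Plxna4*, and *Unc5cl* encodes a cytoplasmic signalling protein that lacks the extracellular part of a netrin receptor.

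The cues act in matched families. Netrins attract axons through DCC and repel them through UNC5 proteins, Slits repel through ROBO receptors, secreted class 3 semaphorins act through neuropilins and plexins, and ephrins on one cell signal to Eph receptor tyrosine kinases on the next. These pathways set up the tracts of the spinal cord during development, and several of their members are still made in the adult nervous system. The genes of many receptors and of some ligands are long, with introns that make up most of their length.

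EccDNA was profiled in cervical spinal cords, 9 from symptomatic mice with mutant *hSOD1* (A1 to A9, called ALS) and 10 from controls (C1 to C10), with 1 library per mouse. The ALS mice, B6.Cg-Tg(SOD1*G93A)1Gur/J males, carry a constitutively overexpressed mutant human *SOD1* transgene and were aged 18 to 21 weeks, with a severity score of 1 or 2. Controls were C57BL/6J mice of matched sex and age, so that a group with the normal human transgene is missing from the comparison. All values come from DNA of the whole cervical segment, and the number of cells that carry a circle and the number of circles per cell cannot be told apart. Each value is a log2 PpGC (produced per gene circle) value, that is log2 of 1 plus the split reads, the reads that run across a circle's junction, of all eccDNAs overlapping a gene, scaled to the length of the longest gene. PpGC values reflect split reads from amplified DNA circles, not a count of circles, and say nothing of RNA or protein. The eccDNAs of a sample fell on a number of genes that ranged from 694 to 2204 in ALS samples and from 57 to 723 in control samples, so that every ALS sample except A6 lay above every control. Among the controls, C1 held the most.

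Circles from guidance genes were found in every ALS sample. Between 6 and 17 of the 40 genes had an eccDNA in an ALS sample (median 11, mean 11.0 ± 3.32 SD, n = 9), against 0 to 10 in a control sample (median 1.5, mean 2.9 ± 3.18 SD, n = 10). A3 held the most and A4 the fewest among the ALS samples. C7 and C10 held none, and C1 with 10 and C8 with 6 reached into the ALS range. Without C1 the control mean was 2.11 ± 2.09 (SD, n = 9). The mean number was 3.79 times as high in ALS, whereas the number of all genes with an eccDNA was 5.35 times as high, so that guidance genes made up 0.65 to 1.01% of the genes with an eccDNA in ALS samples (mean 0.862%) and 0 to 3.67% in controls (mean 1.23%). Their share of the table is 0.48%. Few genes stand behind the share in controls, and 4 guidance genes among 109 genes gave the highest value, in C3. These 4 include *Plxna4os1*, whose 2 split reads are also those of *Plxna4*, so that 1 circle may be counted for both genes.

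**Figure D1:**
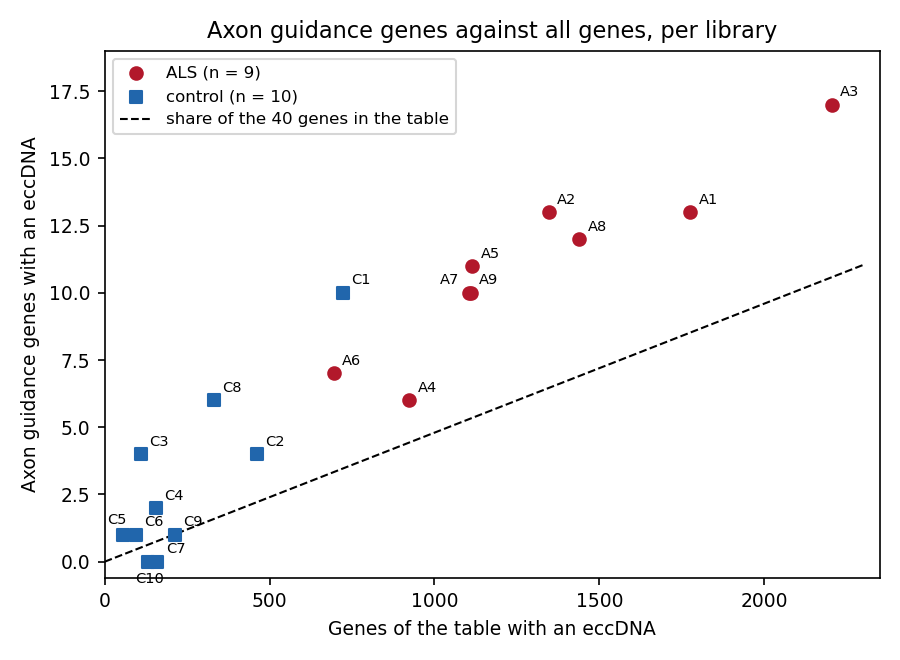
Number of axon guidance genes with an eccDNA (y axis) against the number of all genes with an eccDNA (x axis) in each of 9 ALS (circles) and 10 control (squares) libraries. The dashed line is the share that the 40 genes have of the table. Every ALS library lies above it, from A4 with 6 to A3 with 17 guidance genes. So do the controls C1 to C6 and C8, while C7, C9 and C10 lie below it.

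Among the 40 genes, *Sema3d* alone was called higher in ALS, which took a p under 0.01 in the methods' t-test and group means more than 1 apart on the log2 PpGC scale. Over all 8336 genes 1.33% were called higher (111 genes), and 1 of 40 is 2.5%. The paper reports a larger number of up-produced genes at these stated thresholds, with *Sema3d* among them, and the reason for the gap was not tested. None of the 40 genes was called lower in ALS, as for the table as a whole (0.0%, 0 of 8336). The ALS mean was the higher one with an unadjusted p under 0.05 in the methods' t-test for 7 genes (17.5%), against 4.2% of all genes, and the lower one for 0. These were *Sema3d*, *Epha3*, *Epha5*, *Epha6*, *Robo1*, *Unc5b* and *Unc5d*. After Benjamini-Hochberg adjustment over all genes, 0 of the 40 passed 0.05 with the methods' t-test and 0 with the exact permutation test. The mean was higher in ALS for 38 of the 40 genes (95%), with a median difference of 1.39, and for 86.5% of all genes, with a median difference of 1.19. By construction this includes the 21 guidance genes, and 6255 of all genes, without an eccDNA in any control. *Sema4a*, with 2 split reads in C4, and *Plxna4os1*, with 2 split reads in C3, were found in controls only.

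**Figure D2:**
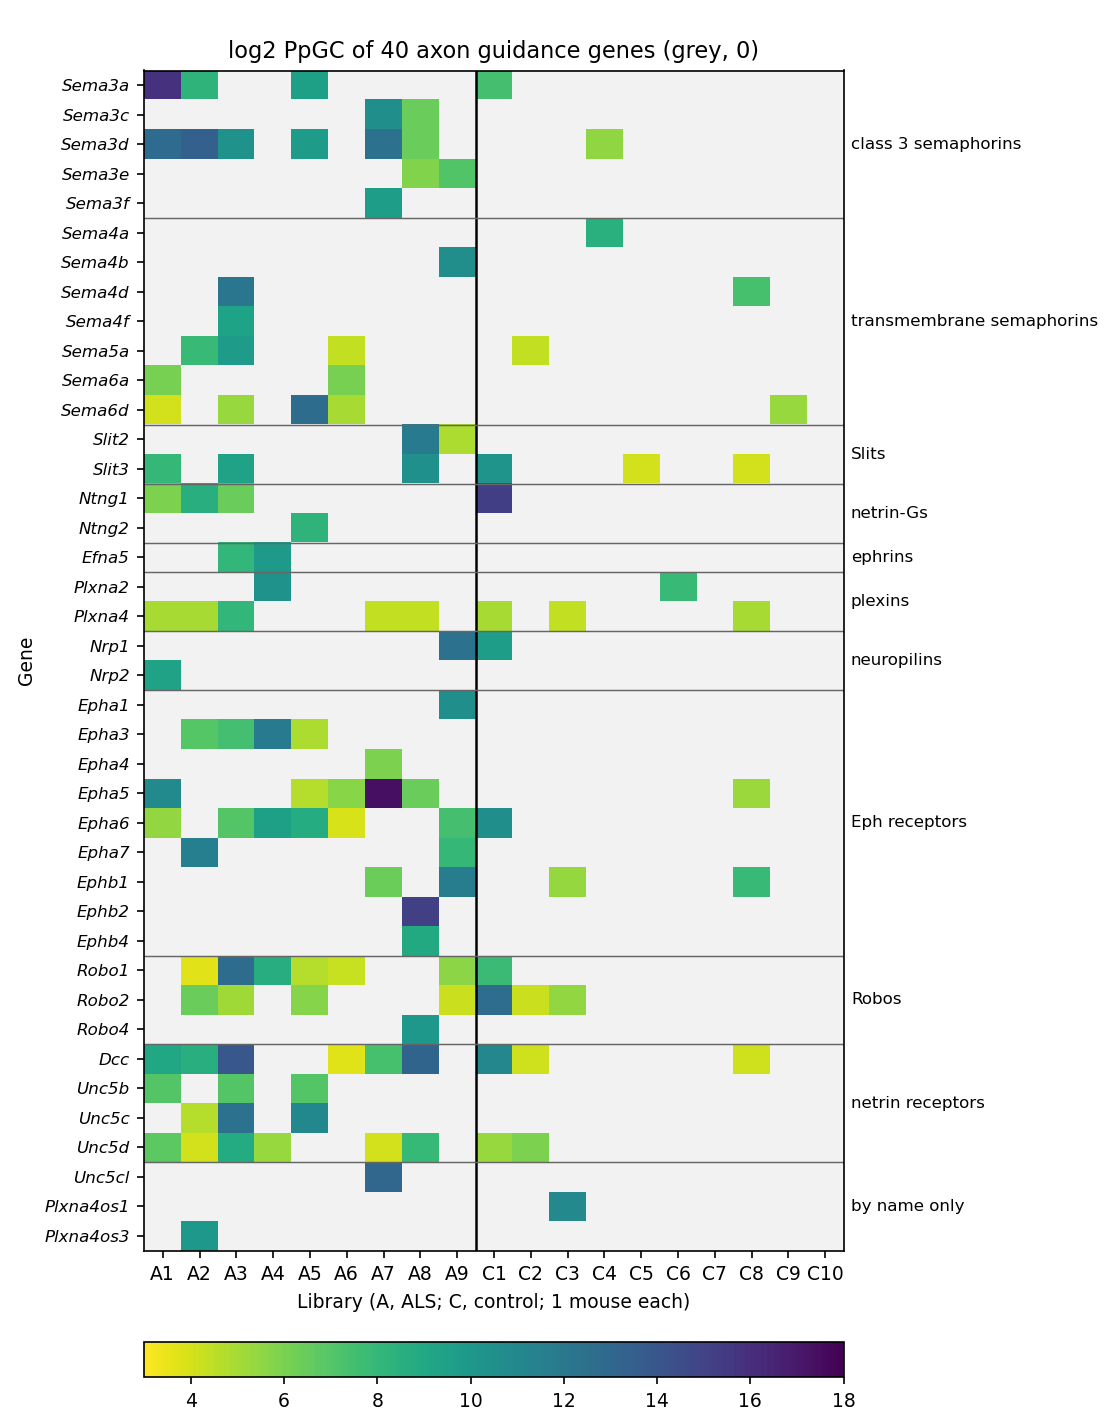
The log2 PpGC (colour) of the 40 axon guidance genes (rows, grouped by family) in 9 ALS libraries (left of the line) and 10 control libraries (right). Grey fields are 0. ALS libraries held 99 of the 128 values above 0, and C1 held 10 of the 29 control values.

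*Sema3d* encodes a secreted class 3 semaphorin, a cue for axons and for migrating cells. The gene spans 205.6 kb at chr5:12383385-12588948 on the plus strand. It had an eccDNA in 6 of 9 ALS samples and in 1 of 10 controls. Its log2 PpGC was 12.75 in A1, 13.38 in A2, 10.34 in A3, 9.75 in A5, 12.39 in A7 and 6.45 in A8, and it was 0 in A4, A6 and A9. The only control above 0 was C4 with 5.46, below each of the 6 ALS values, while the 0 of 3 ALS samples overlapped with the 9 other controls. The mean was 7.23 ± 5.79 (SD, n = 9) in ALS and 0.55 ± 1.73 (SD, n = 10) in controls, a difference of 6.68 with a two-sided exact permutation p = 0.00548, or 0.581 after adjustment over all genes. The values rest on 319, 494, 60, 40, 248 and 4 split reads in these ALS samples and on 2 in C4. The 3 ALS samples without a *Sema3d* circle did hold circles nearby, with an eccDNA in 2, 5 and 10 of 28 other genes of the table within 5 Mb in A4, A6 and A9. When the sample's count of genes that carry any eccDNA was added as a covariate, the difference was 0.49 (permutation p = 0.882). This count ran from 694 to 2204 in ALS and from 57 to 723 in controls, overlapping only through A6 and C1, and it includes the tested gene. Differences with the covariate, here and below, therefore rest largely on extrapolation and cannot separate group from count.

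Other class 3 semaphorins lie in a row with *Sema3d* on chromosome 5. *Sema3a*, which encodes a secreted repellent, starts 536 kb further on, *Sema3e* follows after 423 kb and *Sema3c* after 3320 kb. *Sema3a* had the second-highest single value of all guidance genes in split reads, with 6452 reads in A1 (log2 PpGC 15.87). It was also found in A2 (8.22) and A5 (9.45) and, among controls, in C1 (7.39). *Sema3c* was found in A7 and A8 and *Sema3e* in A8 and A9, neither in a control. At least 1 of these 4 genes had an eccDNA in 7 ALS samples, all but A4 and A6, and in 2 controls, C1 and C4. *Sema3f*, on chromosome 9, had 5 split reads in A7 and none elsewhere.

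Among the 7 transmembrane semaphorins, 12 of 63 values were above 0 in ALS and 4 of 70 in controls. *Sema6d*, a ligand of A-type plexins with a gene of 577.8 kb, was the one found most often, in 4 ALS samples and 1 control. Its log2 PpGC was 4.03 in A1, 5.3 in A3, 12.71 in A5, 4.99 in A6 and 5.3 in C9. A5 stood far above the others, with 874 split reads against 2 to 5 elsewhere. The difference was 2.47 (ALS 3.0 ± 4.32, n = 9, control 0.53 ± 1.68, n = 10, SD, two-sided exact permutation p = 0.119). *Sema5a* had an eccDNA in 3 ALS samples and 1 control, and the 5 remaining genes in at most 2 samples of a group.

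The Slits, secreted ligands of the Robo receptors, gave no difference that passed the test. *Slit3* was present in 3 ALS samples, with log2 PpGC of 8.01 in A1, 9.38 in A3 and 10.46 in A8, and in 3 controls, with 10.23 in C1, 4.01 in C5 and 4.01 in C8. The groups overlapped widely, with a difference of 1.27 (ALS 3.09 ± 4.68, n = 9, control 1.82 ± 3.39, n = 10, SD, exact permutation p = 0.517). With the covariate, whose values the groups hardly share, the sign turned, to -8.03 (permutation p = 0.00379). No lower level in ALS is read from this. *Slit2* was found in A8 with 268 split reads and in A9 with 2. The netrin-G gene *Ntng1*, whose membrane-anchored product binds the *Lrrc4c* protein, had its highest value in a control, with 3182 split reads in C1 (log2 PpGC 15.24) against 5, 32 and 7 reads in A1, A2 and A3. The ephrin gene *Efna5* was present in A3 and A4.

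For a few genes, an overlapping gene of the table places the circles within the gene. A circle is counted for every gene that it overlaps by at least 1 base, so equal split reads in a nested gene locate it. In *Slit2*, 260 of the 268 split reads in A8 were counted for the antisense gene *4930518C09Rik* (chr5:48003065-48005707) and 260 for the sense intronic gene *Gm20475* (chr5:48005784-48007923). A single circle that overlaps both has to hold the 76 bases between them. In *Epha6*, all 90 split reads of A5 and 3 of the 151 of A4 were also counted for *Gm4660*, a processed pseudogene of 403 bases (chr16:60397920-60398322). Reads from a processed pseudogene may have aligned to a near-identical copy elsewhere, and the position is uncertain for that reason. These stretches are printed from the plus strand of RefSeq's GRCm38.p6 (mm10), since they are the places within long guidance genes that the table pins down most closely. The first spans chr5:48005646-48005845, with the 76 bases in capitals, and the second is the middle of *Gm4660*, chr16:60398022-60398221, where a circle of *Gm4660* need not cover every base.
Slit2, between the nested genes: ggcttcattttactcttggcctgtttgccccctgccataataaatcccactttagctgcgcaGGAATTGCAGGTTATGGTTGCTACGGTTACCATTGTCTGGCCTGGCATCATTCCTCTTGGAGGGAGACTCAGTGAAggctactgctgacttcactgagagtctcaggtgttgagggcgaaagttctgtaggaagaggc
Gm4660 within Epha6: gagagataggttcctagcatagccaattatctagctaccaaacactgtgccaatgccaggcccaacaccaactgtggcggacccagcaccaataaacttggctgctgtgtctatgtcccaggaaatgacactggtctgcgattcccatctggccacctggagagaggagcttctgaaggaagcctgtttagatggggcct

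The same reading applied to smaller counts elsewhere. In *Plxna4* the 3 split reads of A2 were those of *Plxna4os3* and the 2 split reads of C3 were those of *Plxna4os1*, so these antisense genes hold no circles beyond those of *Plxna4*. In *Unc5d* the 5 split reads of C1 were those of the nested gene *Gm9911*. GC content of the printed stretches was 50.5% for *Slit2* and 52.5% for *Gm4660*.

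Values above 0 were more frequent among receptors than among ligands, which is given as a description without a test. Of the 180 values of the 20 receptor genes in ALS samples, 60 were above 0 (33.3%), against 18 of 200 (9.0%) in controls. For the 17 ligand genes these were 37 of 153 (24.2%) and 10 of 170 (5.88%), and over all genes 15.6% and 2.92%. Receptor genes had a median length of 260 kb and ligand genes of 206 kb, against 49.3 kb for all genes with a known length. The receptors found in at least 4 ALS samples were *Dcc*, *Unc5d*, *Robo1*, *Robo2*, *Epha3*, *Epha5*, *Epha6* and *Plxna4*.

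*Dcc* encodes the netrin receptor that mediates attraction, and with 1097 kb it is the longest of the 40 genes (chr18:71253634-72351069, minus strand). It had an eccDNA in 6 ALS samples and in 3 controls. Its log2 PpGC was 9.02 in A1, 8.62 in A2, 13.95 in A3, 3.71 in A6, 7.38 in A7 and 13.16 in A8, and 0 in A4, A5 and A9. In controls it was 11.04 in C1, 4.1 in C2 and 4.1 in C8. C1 exceeded all ALS samples but A3 and A8, so the groups overlapped. The difference of 4.28 (ALS 6.21 ± 5.54, n = 9, control 1.92 ± 3.63, n = 10, SD) did not pass the test (two-sided exact permutation p = 0.0608). Without C1 it was 5.29 (exact permutation p = 0.0226), where leaving out the highest control raises the difference by construction. Without A3 it was 3.31 and without A8 3.41 (exact permutation p = 0.12 for each). With the covariate the sign of the difference turned, to -6.91 (permutation p = 0.0133). The paper names *Dcc* among the genes whose circles were common in ALS samples, and as listed for ALS in a database. That selection counted votes of samples within a group and did not compare the groups.

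The UNC5 receptors mediate repulsion by netrins. *Unc5d* was found in 6 ALS samples, with log2 PpGC of 6.77 in A1, 4.04 in A2, 8.79 in A3, 5.31 in A4, 4.04 in A7 and 7.96 in A8. Controls C1 (5.31) and C2 (5.98) lay among these values. The difference was 2.97 (ALS 4.1 ± 3.46, n = 9, control 1.13 ± 2.38, n = 10, SD, exact permutation p = 0.043), and it was -3.91 with the covariate (permutation p = 0.0323). *Unc5c* was present in A2, A3 and A5 and *Unc5b* in A1, A3 and A5, and neither in any control. Each *Unc5b* value rests on 2 split reads, the fewest that the table keeps. At least 1 of the 4 netrin receptor genes had an eccDNA in 8 ALS samples, all but A9, and in 3 controls.

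The Slit receptors *Robo1* and *Robo2* lie next to each other on chromosome 16, 846 kb apart. *Robo1* had an eccDNA in 6 ALS samples, with log2 PpGC of 3.7 in A2, 12.72 in A3, 8.66 in A4, 4.65 in A5, 4.25 in A6 and 5.62 in A9, and in the control C1 with 7.76. Only A3 and A4 lay above C1. Its difference was 3.62 (ALS 4.4 ± 4.29, n = 9, control 0.78 ± 2.46, n = 10, SD, exact permutation p = 0.0311), and it turned to -0.25 with the covariate (permutation p = 0.931). *Robo2* was 6.43 in A2, 5.13 in A3, 5.71 in A5 and 4.17 in A9, and 12.66 in C1, 4.17 in C2 and 5.45 in C3. The highest *Robo2* value was thus a control's, and the difference was 0.15 (ALS 2.38 ± 2.89, n = 9, control 2.23 ± 4.19, n = 10, SD, exact permutation p = 0.939). *Robo4*, which is known from blood vessel endothelium, had 3 split reads in A8.

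The Eph receptors were the only family with an eccDNA in all 9 ALS samples, and 3 controls (C1, C3 and C8) held one. With 9 genes they were also the largest family, and this count does not allow for family size. Of their ALS values, 23 of 81 were above 0 (28.4%), near the 27.5% of all 40 genes. Netrin receptors (18 of 36), Robos (40.7%), plexins (33.3%) and class 3 semaphorins (31.1%) had higher shares. The other families had lower ones. *Epha3* was not found in any control. Its log2 PpGC was 6.97 in A2, 7.5 in A3, 11.86 in A4 and 4.84 in A5, with a mean of 3.46 ± 4.48 (SD, n = 9, exact permutation p = 0.0325 against 0 in all 10 controls). *Epha5* was 10.87 in A1, 4.67 in A5, 5.64 in A6, 17.4 in A7 and 6.44 in A8, and 5.24 in C8. A7 stood out with 14189 split reads, 35.0% of all those of the 40 genes, and the difference was 4.48 (ALS 5.0 ± 6.03, n = 9, control 0.52 ± 1.66, n = 10, SD, exact permutation p = 0.0263).

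*Epha6* was 5.42 in A1, 7.04 in A3, 9.46 in A4, 8.72 in A5, 3.9 in A6 and 7.4 in A9. The single control above 0, C1 with 10.53, lay above every ALS sample. The difference was 3.61 (ALS 4.66 ± 3.86, n = 9, control 1.05 ± 3.33, n = 10, SD, exact permutation p = 0.0466). *Ephb1*, a receptor of B-type ephrins, was 6.38 in A7 and 11.7 in A9 against 5.39 in C3 and 7.82 in C8, a difference of 0.69 (ALS 2.01 ± 4.2, n = 9, control 1.32 ± 2.84, n = 10, SD, exact permutation p = 0.652). *Ephb2* was found in 1 sample only, A8, with 1549 split reads. Without C1, *Epha6* and *Robo1* joined *Sema3d* among the genes called higher in ALS, with differences of 4.66 and 4.4 (exact permutation p = 0.00905 for each), where leaving out the only control with a circle raises the difference by construction. None of the p-values of *Epha3*, *Epha5*, *Epha6*, *Robo1* or *Unc5d* stayed under 0.05 with the covariate in the same direction.

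Plexins and neuropilins together form the receptors of class 3 semaphorins. *Plxna4* was found in 5 ALS samples and 3 controls, but at low values, 4.95 in A1, 4.95 in A2, 8.08 in A3, 4.39 in A7 and 4.39 in A8 against 4.95 in C1, 4.39 in C3 and 4.95 in C8. Apart from A3 with 27 split reads, each rests on 2 or 3 reads. The difference was 1.54 (ALS 2.97 ± 3.03, n = 9, control 1.43 ± 2.31, n = 10, SD, exact permutation p = 0.256), or -4.49 with the covariate (permutation p = 0.0121). *Plxna2* and *Nrp1* were each present in 1 sample of either group and *Nrp2* in A1.

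**Figure D3:**
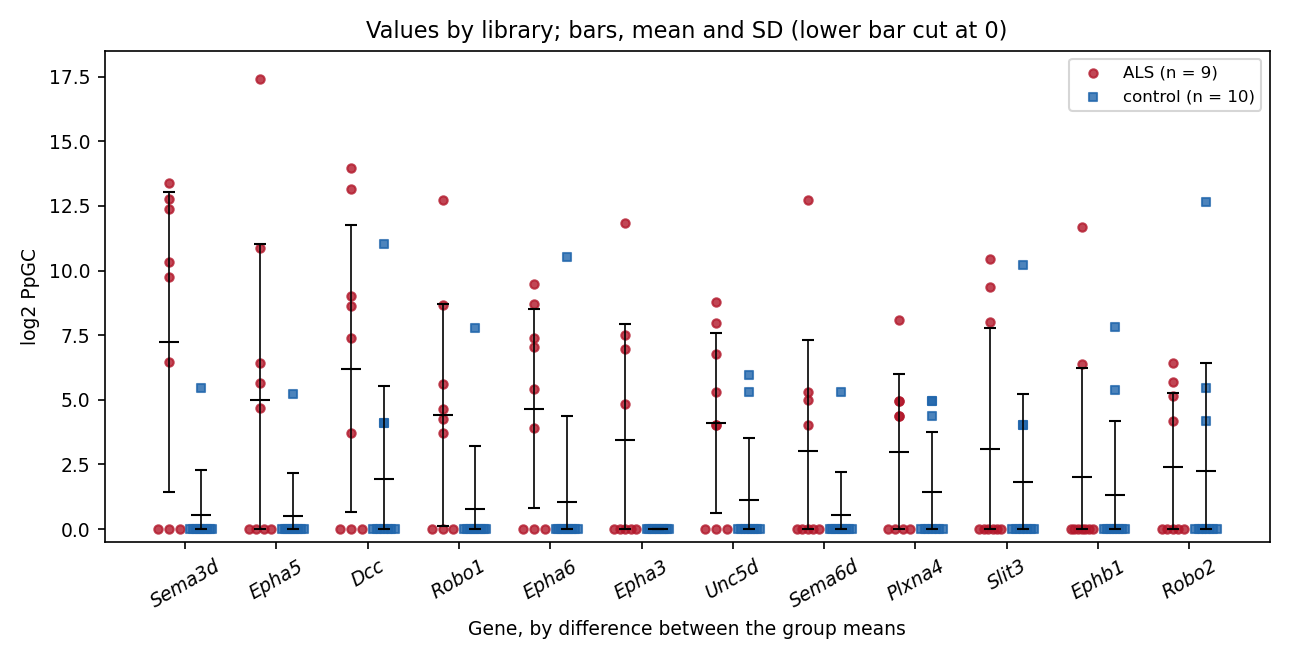
The log2 PpGC (y axis) of 12 guidance genes in each ALS (circles) and control (squares) library, with the mean and SD of each group as bars, the lower bar ending at 0. In *Sema3d* the 6 ALS values above 0, from 6.45 to 13.38, exceed the single control at 5.46, whereas in *Robo2*, *Epha6* and *Slit3* the highest or nearly the highest value is that of C1.

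The split reads behind these values were very uneven. The 128 values above 0 summed to 40585 split reads, 35468 in ALS samples and 5117 in controls. The top 5 values held 74.0% of them, namely *Epha5* in A7, *Sema3a* in A1, *Dcc* in A3, *Ntng1* in C1 and *Dcc* in A8 with 2269. At the other end, 58 values rested on at most 5 split reads and 26 on 2. C1 alone held 5029 of the control reads, and the other controls held 0 to 38 each. The median of a value above 0 was 10 split reads in ALS and 4 in controls. RCA copies circles many times, so that a high split read number need not stand for many circles.

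Gene length went along with how often a guidance gene was found. The 40 genes had a median length of 194 kb, and the 36 names that the table does not hold one of 16.4 kb. Every gene found in at least 4 ALS samples was longer than 200 kb, 4 of the 12 between 200 and 500 kb and 6 of the 7 above 500 kb. Genes of the table at these lengths reached 4 ALS samples in 28.2% and 76.7% of cases. In the class from 200 to 500 kb, 1 of 12 guidance genes was called higher in ALS, and 5.39% of the 798 genes in this class were. Above 500 kb, 0 of 7 were called, and 24.1% of the 232 genes were. With an unadjusted p under 0.05 in the methods' t-test it was 3 of 12 against 18.7% and 3 of 7 against 48.3%. Guidance genes up to 50 kb had an eccDNA in 0.778 ALS samples on average, those of 50 to 200 kb in 1.42, those of 200 to 500 kb in 3.33 and those above 500 kb in 5.0, and the averages over all genes were 0.941, 1.41, 2.74 and 5.07.

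**Figure D4:**
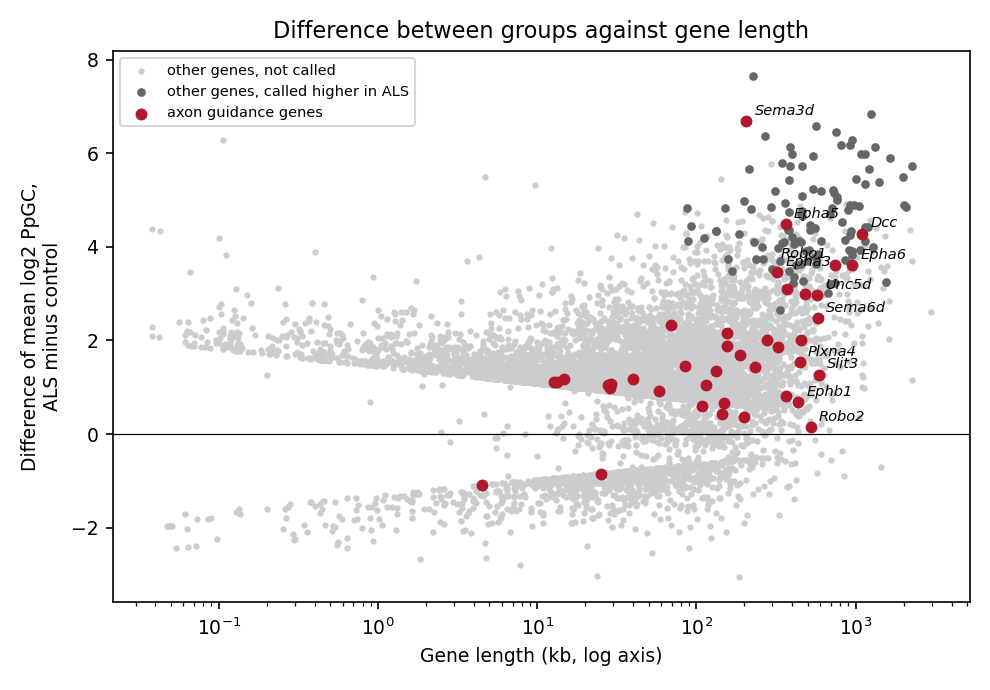
Difference of mean log2 PpGC between ALS and control samples (y axis) against gene length in kb (x axis, log scale) for all genes with a known length, with the 40 axon guidance genes in red and other genes called higher in ALS in dark grey. *Sema3d* at 205.6 kb has a difference of 6.68, while *Robo2* at 520 kb lies near 0 with 0.15.

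Coverage of chromosomes differed between ALS libraries, which touches some of the receptors. The share of a library's genes that lie on a chromosome varied between ALS samples beyond counting error on 10 chromosomes that hold 13 of the 40 genes, with a chi-square per degree of freedom of 4.5 to 20.6. On the others it was at most 1.99, and on chromosome 5, with *Sema3d*, it was 0.401. Chromosome 16 carries *Epha3*, *Epha6*, *Robo1* and *Robo2* and had the value 7.16. None of these 4 genes had a circle in A7 or A8. Other genes of the table within 5 Mb of *Epha6* had one for 1 of 30 in A7 and 0 in A8, against 4 to 9 in the remaining ALS samples, and within 5 Mb of *Epha3* for 2 and 1 of 21, against 4 to 7. Around *Robo1* it was 4 of 20 in A7 and 1 in A8, and A4 and A6, which do carry *Robo1*, had 3 each. Around *Robo2* it was 3 of 22 in A7 and 0 in A8, against 2 to 7 in the remaining ALS samples. A low number of neighbours thus went with A8 at all 4 genes and with A7 at *Epha6* and *Epha3*, and its part in the receptors' values was not tested. Around *Dcc* on chromosome 18, the ALS samples without a *Dcc* circle had an eccDNA in 2 (A4), 0 (A5) and 2 (A9) of 24 other genes, but A2 with 2 and the controls C2 and C8 with 0 did carry a *Dcc* circle. Around *Slit3*, the ALS samples without it had 4 (A2), 4 (A4), 0 (A5), 3 (A6), 0 (A7) and 6 (A9) of 21, and those with it 6 (A1), 9 (A3) and 5 (A8).

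Further genes of the pathway were taken from a list of 106 names, of which 65 are in the table. In this list 1 gene (1.54%) was called higher in ALS, against 1.33% of all genes, and 0 lower. The mean was higher in ALS for 58 (89.2%), against 86.5% of all genes, and the median difference was 1.12 against 1.19. By construction the 58 include 46 genes without an eccDNA in any control. The called gene was *Lrrc4c*, the binding partner of netrin-G1 at synapses, with an eccDNA in 8 ALS samples and in 1 control. Its gene is longer than *Dcc*, with 1310 kb. The mean log2 PpGC of *Lrrc4c* was 6.93 ± 4.04 (SD, n = 9) in ALS and 0.8 ± 2.53 (SD, n = 10) in controls, a difference of 6.13 (exact permutation p = 0.00174). It was no longer called with the Benjamini-Hochberg adjusted p, with the covariate or with a pseudocount of 100. Of all genes above 500 kb, 24.1% were called higher. With the unadjusted p under 0.05 the list held 4 higher genes (6.15%, against 4.2% of all genes), the others being *Vav3*, a guanine nucleotide exchange factor, *Ablim1*, an actin-binding protein, and *Neo1*, a receptor related to *Dcc*. Of the 17 other cues and receptors on the list, 1 was called, and of the 48 cytoplasmic effectors none was, with 2 at the unadjusted p under 0.05. The paper lists the effectors *Ablim1*, *Vav3*, *Kalrn*, *Ptk2*, *Ssh2* and *Sipa1l1* among its genes up-produced in ALS. They were not called here at the same stated thresholds.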

How the data were processed

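EccDNA was measured in 9 ALS and 10 control samples. The authors digested linear DNA of 400 ng total DNA with exonuclease V for 7 days, amplified circles for 48 h by RCA, and called circles with Circle_Finder on mm10. EccDNAs lying less than 10 bp apart were merged by them. They removed circles with fewer than 2 split reads and intersected the rest with GENCODE genes in bedtools (release not given in the sources used here). The authors deposited log2(PpGC + 1), with a length factor per gene and no scaling of samples, so differences in total eccDNA between samples stay in every value.

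Genes were matched by name to GENCODE M21, which placed 8088 of 8336 genes and all 40 guidance genes. Divided by their length factor, all 128 guidance gene values above 0 came out as whole split reads, within 0.02. The paper gives an average number of reads per library, but the sequencing depth of each single library is unknown. Precision is limited by it and by RCA, and an absent circle may be one below 2 split reads. Replicates are separate mice. The table had 0 columns of other samples.

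Student's test, two-sided with equal variance, was run on all genes, since the study's methods name that test. Single genes had a two-sided exact permutation test over all 92378 assignments of the samples, where p is the share with an absolute difference of means at least as large, adjusted by Benjamini-Hochberg over all genes. Adjusted over all genes, a single gene at the smallest possible p would reach 0.0902. The covariate test permuted residuals 100000 times. Genes named with full values are *Sema3d*, *Dcc*, genes called, genes with an eccDNA in at least 4 ALS or 2 control samples, and genes with an exact p under 0.05. The guidance genes, the pathway list and the tests were chosen with earlier results of these data known. Alternatives were limma, other thresholds, a replicate block, the covariate, presence or absence, equal totals, a pseudocount of 100, values not scaled for length, at least 3 samples, chromosomes 2 to 9 and X, and leaving out each sample. Leaving out A7 and A8 or A9, the doubled tail, leaving out the 3 genes that share only a name, and some settings of the other counts were chosen after seeing the data. Replicate numbers did not pair the samples. The tests were tested on simulated data. Python 3.11.15, NumPy 2.4.6, pandas 2.3.3, SciPy 1.17.1, matplotlib 3.10.9, R 4.3.3 and limma 3.58.1 were used.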

Additional observations from a re-analysis of the deposited data

Results flagged for a closer look

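Single samples stood far from the rest of their group in 10 of the sets of values examined. The rule's rate of about 1 in 20 sets does not hold for values that are mostly 0. A sample that alone lies above 0 is flagged by construction, as in controls for *Epha5*, *Epha6*, *Robo1*, *Sema3d* and *Sema6d*. Among ALS samples it was *Sema6d* in A5, at a log2 PpGC of 12.71. Among controls, C1 stood apart for *Dcc* (11.04), *Epha6* (10.53), *Robo1* (7.76), *Robo2* (12.66) and *Slit3* (10.23). Other single controls were C8 for *Epha5* (5.24), C4 for *Sema3d* (5.46) and C9 for *Sema6d* (5.3). The percent of genes with an eccDNA that were guidance genes stood out in C3, at 3.67%, where 4 of 109 genes were guidance genes. Of these 4, *Plxna4os1* repeats the split reads of *Plxna4*, and without the genes that share only a name 3 remain. C1 also had the most genes with an eccDNA of the controls, and whether this has a part in its guidance gene values was not tested.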

How the results depend on the processing

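The count of 1 guidance gene called higher in ALS, *Sema3d*, was the same with limma, an exact p under 0.01, a one-sided p, no length scaling, a pseudocount of 100, genes in at least 3 samples, and chromosomes 2 to 9 and X. It was 0 with adjusted p, a p under 0.001, the replicate block, the covariate, equal totals and presence or absence, and 7 at an unadjusted p under 0.05. Leaving out 1 sample gave 1 to 3, and 3 only without C1. The count called lower was 0 in each setting it was run with (not a one-sided p, chromosomes 2 to 9 and X, or leaving out samples) except for 1, *Slit3*, with the covariate. The groups hardly share values of the covariate, so the *Slit3* call is not read as a lower level in ALS. In the pathway list 1 was called, 3 with limma and with a one-sided p (*Lrrc4c*, *Vav3* and *Ablim1*), 4 at an unadjusted p under 0.05, and 0 with adjusted p, the covariate and a pseudocount of 100. The difference in guidance genes per sample, 8.1, was 4.76 when only values of at least 8 counted, 4.61 on chromosomes 2 to 9 and X, and 7.35 to 8.89 leaving out 1 sample. The difference in their share, -0.37 percentage points, was 0.213 with values of at least 8 and -0.506 to -0.0986 leaving out 1 sample.

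Differences that turned their sign were, with the covariate, those of *Dcc* (-6.91), *Plxna4* (-4.49), *Robo1* (-0.25), *Robo2* (-4.6), *Slit3* (-8.03) and *Unc5d* (-3.91), and with equal totals those of *Ephb1* (-0.05) and *Robo2* (-1.1). That of *Robo2* also turned without length scaling (-0.24), with a pseudocount of 100 (-0.44) and with the replicate block (-0.09), and leaving out 1 sample it ran from -0.35 to 1.31. For *Ephb1* that range was -0.52 to 1.41. The cause was not tested. *Sema3d* kept an exact p of at most 0.00905 whichever sample was left out, and its difference with the replicate block was 6.62 (exact permutation p = 0.0312). The block also took *Epha3*, *Epha5*, *Epha6*, *Robo1* and *Unc5d* over 0.05, although same-numbered samples did not deviate together (r from -0.021 to 0.023 in 9 pairs, with 2 ALS samples closest to their own number). For *Epha3* and *Epha5* the block's exact permutation p, 0.125 and 0.0625, was the lowest that it can reach for them. Pairs with 0 in both samples add nothing to it, so nothing is drawn from the block for *Epha3* and *Epha5*. With the smaller tail doubled, 4 of the 6 guidance genes with an exact p under 0.05 stayed under it, and *Epha3* (0.065) and *Unc5d* (0.0526) did not. Leaving out single samples moved the exact p of *Robo1* over 0.05 without A3 (0.0561), that of *Epha5* without A1, A5, A6, A7 or A8 (up to 0.0686), that of *Epha6* without A1, A3, A4, A5, A9 or any control but C1 (up to 0.0905), that of *Unc5d* without A1, A2, A3, A4, A7, A8 or any control but C1 and C2 (up to 0.103), and that of *Epha3* without A2, A3, A4, A5 or any control (up to 0.0824). That of *Dcc* moved under 0.05 without A4, A5 or A9 (0.0269 each) and without C1, its highest control (0.0226), and rose to 0.12 without A3 or A8. Without a control the groups are equal in size, so mirrored assignments also count and the two-sided p can rise for that reason. For *Epha3*, at 0 in all controls, the difference stayed at 3.46. A p over 0.05 without a control at 0 is therefore not read as dependence on that control. Leaving out an ALS sample at 0 raises a difference by construction, and so does leaving out the ALS samples A7 and A8 for the genes on chromosome 16 or A9 for *Dcc*, so that nothing was drawn from those values.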
